A study of Mus musculus with 12 samples.

Results

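The enzymes described here belong to 3 families that attach a polar group to bile acids, steroids, bilirubin, drugs and reactive electrophiles: the glutathione transferases (GST), the sulfotransferases (SULT) and the UDP-glycosyltransferases (UGT). Their members were taken by gene name, as the probe sets of the array with a single gene symbol beginning Gst, Mgst, Sult or Ugt1 to Ugt3 followed by a class letter or member number. Of the 45037 probe sets on the array 56 met this rule, and they stood for 43 of 17097 named genes, with 19 GST, 13 SULT and 11 UGT genes. The rule read names only, although the families themselves were chosen with earlier results of these data known. For each gene and tissue the brightest probe set was kept, which mattered for the 11 members with several probe sets and picked another one in the lung than in the liver for Gsta2 and Gsto1.

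Expression had been measured on 12 Affymetrix mouse plate arrays, 6 of liver and 6 of lung. The liver arrays compared 3 adult female Abcb11-/- mice with 3 WT females, all C57BL/6 and 1.5 months old. Abcb11 encodes the pump that moves bile salts from the hepatocyte into bile, and its loss causes cholestasis. The lung arrays held 1 array for each mother at embryonic days 17.5 and 18.5 (E17.5 and E18.5) and on neonatal day 0 (N0). All lung donors were Abcb11+/- offspring on C57BL/6, born either to an Abcb11-/- female mated with a WT male or to a WT female mated with an Abcb11-/- male, so that the genotype of the offspring was shared and that of the mother differed. Each liver replicate was labelled as a mouse and taken as 1 animal, whereas the labels give no number of animals for a lung array. A legend of the study names several lungs per group for expression analysis at E18.5 and N0, without saying whether they were pooled on these arrays. With 1 array per stage and mother, no difference between mothers at a single stage had a replicate check.

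GST enzymes join the thiol of glutathione to electrophilic compounds and, in several classes, reduce organic peroxides. SULT enzymes transfer sulfate from the activated donor PAPS to hydroxyl or amine groups, and UGT enzymes transfer a sugar, mostly glucuronic acid, from a UDP-sugar. In the liver these reactions make bile acids, bilirubin and steroids more water-soluble before pumps export the conjugates, and many of the genes are known targets of the receptors PXR, CAR and AHR and of the antioxidant factor NRF2.

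The promoter windows of the 6 members on which the results below turned are shown here. Gsta2 and Gstm3, Sult3a1 and Ugt2b1 had the largest liver changes of their families, and Ugt1a6a and Ugt1a9 were the 2 members at least 1.5-fold apart by mother in the lung at E17.5 among those with a log2 value of 7 or more there, although no member passed a test for the mother. Each window runs from 250 bases before to 50 bases after the RefSeq start on GRCm38.p6, 5′ to 3′ on the gene's own strand. Capitals mark a match to one of 4 motifs searched on both strands: GCGTG (core of the xenobiotic response element bound by AHR), TGACNNNGC (core of the antioxidant response element), TGANTCA (a relaxed form of the AP-1 site) and GTTAAT (core of the site bound by the liver factor HNF1). N stands for any base, so a match to TGANTCA need not be an AP-1 site. The windows lie at chr9:78347096-78347395 (minus strand) for Gsta2, chr3:107969125-107969424 (minus) for Gstm3, chr10:33857472-33857771 (plus) for Sult3a1, chr5:86926454-86926753 (minus) for Ugt2b1, chr1:88134559-88134858 (plus) for Ugt1a6a and chr1:88070529-88070828 (plus) for Ugt1a9.
Gsta2: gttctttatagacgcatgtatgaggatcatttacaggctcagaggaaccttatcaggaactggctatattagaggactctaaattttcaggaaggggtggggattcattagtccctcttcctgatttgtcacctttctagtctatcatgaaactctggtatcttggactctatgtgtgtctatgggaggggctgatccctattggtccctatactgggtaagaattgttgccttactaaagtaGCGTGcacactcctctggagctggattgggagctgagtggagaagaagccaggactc
Gstm3: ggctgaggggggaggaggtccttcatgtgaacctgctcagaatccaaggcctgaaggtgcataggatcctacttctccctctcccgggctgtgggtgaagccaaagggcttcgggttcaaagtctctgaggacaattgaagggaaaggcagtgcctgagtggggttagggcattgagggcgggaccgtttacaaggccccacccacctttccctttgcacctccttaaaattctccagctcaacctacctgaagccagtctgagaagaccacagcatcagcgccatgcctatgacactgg
Sult3a1: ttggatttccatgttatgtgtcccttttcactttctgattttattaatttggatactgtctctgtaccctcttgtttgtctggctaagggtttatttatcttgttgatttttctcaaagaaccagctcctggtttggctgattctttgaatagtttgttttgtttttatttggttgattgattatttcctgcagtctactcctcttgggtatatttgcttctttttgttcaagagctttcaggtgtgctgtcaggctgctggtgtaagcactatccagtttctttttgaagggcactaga
Ugt2b1: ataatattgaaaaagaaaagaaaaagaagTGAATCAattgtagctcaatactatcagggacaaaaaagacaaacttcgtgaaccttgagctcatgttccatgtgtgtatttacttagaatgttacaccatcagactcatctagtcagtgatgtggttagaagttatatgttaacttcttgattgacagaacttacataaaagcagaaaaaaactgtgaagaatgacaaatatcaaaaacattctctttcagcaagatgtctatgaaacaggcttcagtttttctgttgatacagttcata
Ugt1a6a: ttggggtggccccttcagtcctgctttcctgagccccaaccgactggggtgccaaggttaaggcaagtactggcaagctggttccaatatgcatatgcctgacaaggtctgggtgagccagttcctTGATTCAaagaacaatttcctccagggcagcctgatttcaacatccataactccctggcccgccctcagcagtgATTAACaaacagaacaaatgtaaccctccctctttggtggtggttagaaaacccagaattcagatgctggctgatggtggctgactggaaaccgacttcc
Ugt1a9: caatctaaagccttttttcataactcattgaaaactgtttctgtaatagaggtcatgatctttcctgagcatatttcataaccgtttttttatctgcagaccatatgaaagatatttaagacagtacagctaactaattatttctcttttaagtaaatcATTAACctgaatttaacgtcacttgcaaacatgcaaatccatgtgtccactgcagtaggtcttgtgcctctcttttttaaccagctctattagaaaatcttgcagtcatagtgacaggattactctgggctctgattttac

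The Gsta2 window held GCGTG 7 bases before the start. The Ugt2b1 window held TGANTCA 221 bases before it, and the windows of Gstm3 and Sult3a1 held none of the 4 motifs. Ugt1a6a carried the HNF1 core 50 bases and TGANTCA 124 bases before its start, and Ugt1a9 carried the HNF1 core 91 bases before its start. RefSeq windows were matched for 38 of the 43 members, 48 windows in all. GTTAAT occurred in 12.5% of these against 7.10% of all 32851 windows of this length, TGANTCA in 22.9% against 7.81%, GCGTG in 22.9% against 32.4% and TGACNNNGC in 6.25% against 12.4%. Of the 6 members lower in Abcb11-/- liver, 3 (Sult2a8, Ugt2b1 and Ugt2b37) had TGANTCA in their window. Of the 5 higher members with a window, Gsta2 and Mgst3 had GCGTG and none had TGACNNNGC. These matches describe letters in the window. The Ugt1a6a and Ugt1a9 probe sets may also report other transcripts of their locus, so their signals cannot be tied to these windows alone.

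In the liver the labels were checked with Abcb11 itself, which lay at log2 values of 2.90 to 3.26 in Abcb11-/- and 10.88 to 11.22 in WT mice. Hepatocyte genes such as albumin were at like levels, with none of 15 past the test and a summed linear signal of 134789 to 143837 in Abcb11-/- and 138155 to 142799 in WT livers. Alb lay at 13.80 to 13.84, near the highest value of each liver array (13.84 to 14.16), where a difference may not register. The sum rests mostly on genes of like brightness. Of the dimmer genes, Apob differed by log2 -0.96 and Afp by 1.74, without passing. Neutrophil genes were brighter, with 3 of 8 past the test and a summed signal of 191 to 558 in Abcb11-/- against 84.1 to 119 in WT livers. The summed signal of bile duct genes was higher too (75.9 to 113 against 52.7 to 61.4), with 2 of 6 past the test. These 6 genes were dim, at 5.05 or below on every liver array. Epcam (log2 0.67) and Sox9 (1.15) passed, while Krt19 (0.35), Krt7 (0.26), Cldn7 (1.36) and Cftr (-0.01) did not. Of 10 macrophage genes none passed, at 2788 to 7177 in Abcb11-/- and 3264 to 4884 in WT livers. The part of these cells in the results below was not tested. In whole tissue, fewer cells of a type and less RNA per cell cannot be told apart.

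In Abcb11-/- liver the calls of the 3 families ran in different directions. Of 19 GST genes 5 were higher and none lower, of 13 SULT genes 2 were higher and 4 lower, and of 11 UGT genes none was higher and 2 were lower (limma, Benjamini-Hochberg adjusted p under 0.05 over 17097 genes). Over all genes 4.33% were higher and 2.91% lower by the same rule, a count of 740 and 498. Without WT replicate 2 the counts of members were 4 higher and 3 lower, beside 315 and 177 of all genes. Without WT replicate 3 there were 3 higher members, beside 358 of all genes, and without Abcb11-/- replicate 3 there were 4, beside 446, so that the calls of all genes became fewer as well. The median log2 fold change was 0.27 for GST, with 15 of 19 above 0, -0.12 for SULT and -0.19 for UGT, with 10 of 11 below 0, beside 0.00 over all genes. In the plot of log2 fold changes by family, the GST members spanned -0.32 to 1.89, the SULT members -6.10 to 1.15 and the UGT members -1.50 to 0.02. These counts and medians are descriptions of the families, and the difference between families was not tested.

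**Figure D1:**
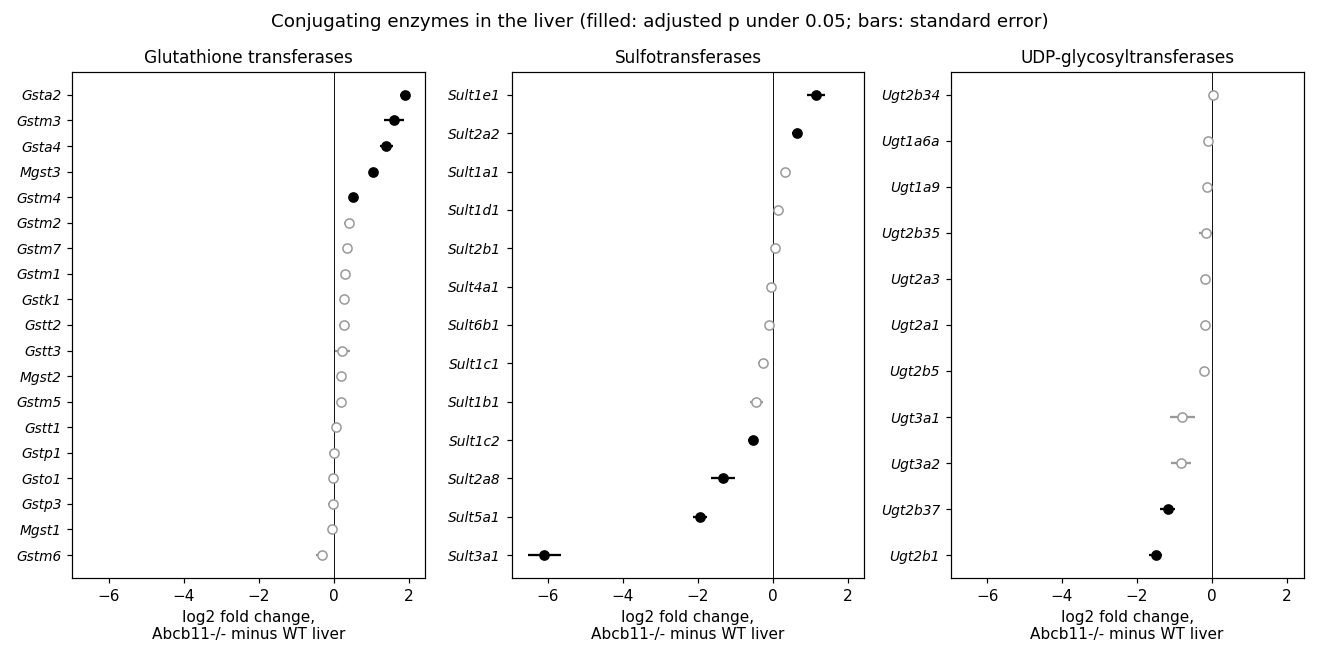
Log2 fold change of each of the 43 members in liver, Abcb11-/- minus WT (3 mice each), by family, with the standard error as a bar and filled points for adjusted p under 0.05. Filled points lie to the right of 0 for GST, on both sides for SULT, and to the left for UGT.

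Among the GST genes, 2 of the alpha class, 2 of the mu class and the microsomal Mgst3 were raised 1.43- to 3.72-fold in Abcb11-/- liver, while those of the pi, omega and theta classes and the abundant Mgst1 did not pass. Gsta2, an alpha-class enzyme that conjugates electrophiles and reduces lipid peroxides, had log2 values of 11.99, 11.84 and 11.89 in Abcb11-/- livers, against 10.20, 10.05 and 9.79 in WT livers. The groups did not overlap, with a fold of 3.72 (log2 1.89 ± 0.12, SE, adjusted p = 0.00055). Gsta4, which removes the lipid peroxidation product hydroxynonenal, was at 11.94, 11.41 and 11.59 in Abcb11-/- and at 10.44, 10.02 and 10.26 in WT livers. Its fold was 2.65 (log2 1.41 ± 0.16, adjusted p = 0.0036). Mgst3, a membrane-bound enzyme with glutathione peroxidase activity, had 10.10, 9.90 and 10.13 in Abcb11-/- livers and 9.06, 8.98 and 8.95 in WT livers, a fold of 2.07 (log2 1.05 ± 0.10, adjusted p = 0.0017). Each of these 3 calls held when any single array was left out.

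Gstm3, a mu-class enzyme, was at 12.75, 11.90 and 12.37 in Abcb11-/- livers, against 11.18, 10.63 and 10.37 in WT livers. Its fold was 3.06 (log2 1.61 ± 0.26, adjusted p = 0.012), and the lowest Abcb11-/- liver still lay above the highest WT liver. Without WT replicate 2 or replicate 3 the adjusted p was 0.062 and 0.053. Gstm4 had 9.76, 9.76 and 9.84 in Abcb11-/- livers and 9.26, 9.41 and 9.15 in WT livers, the smallest rise of the 5 (log2 0.51 ± 0.10, adjusted p = 0.020). Its call was lost without WT replicate 1, WT replicate 3 or Abcb11-/- replicate 3 (adjusted p = 0.076, 0.074 and 0.072). RefSeq places 7 mu-class genes in a cluster, and along it the log2 fold changes were 0.19 for Gstm5, 0.35 for Gstm7, -0.32 for Gstm6, 1.61 for Gstm3, 0.41 for Gstm2, 0.31 for Gstm1 and 0.51 for Gstm4. Of these 7 only Gstm3 and Gstm4 passed the test, and Gstm6 had the lowest value of the 19 GST genes.

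The other GST genes did not pass. Gstp1, the pi-class enzyme, averaged 12.86 ± 0.21 in Abcb11-/- and 12.85 ± 0.15 in WT livers (SD, n = 3 each). Mgst1, which sits in the endoplasmic reticulum and outer mitochondrial membrane, averaged 13.11 ± 0.05 in Abcb11-/- and 13.15 ± 0.05 in WT livers, and Gsto1, an omega-class thiol transferase, 10.83 ± 0.04 and 10.85 ± 0.11. The 14 uncalled genes spanned log2 fold changes of -0.32 to 0.41. The Gstm3 probe set is marked as matching several transcripts, and Gsta2 has a close copy in Gsta1, so the signal of both may include relatives.

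The SULT genes went both ways, and the sharpest change of the whole group was the fall of Sult3a1. This enzyme, an amine sulfotransferase known as female-predominant in mouse liver, had 2.51, 3.46 and 2.43 in Abcb11-/- livers, against 7.88, 9.36 and 9.45 in WT livers. The log2 change was -6.10 ± 0.45 (adjusted p = 0.0008), or 68.4-fold lower in Abcb11-/- livers. The Abcb11-/- values lay near the array medians of 3.15 to 3.18, where a log2 value no longer measures a low level well, so the fold is only as firm as that floor. Sult5a1 was at 3.84, 4.54 and 4.09 in Abcb11-/- livers and at 6.11, 6.31 and 5.88 in WT livers, 3.85-fold lower (log2 -1.94 ± 0.19, adjusted p = 0.002). Both calls held when any array was left out.

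The 2 SULT2A genes measured, whose family sulfates bile acids and hydroxysteroids, went in opposite directions. Sult2a8, a mouse liver bile acid sulfotransferase, had 10.08, 11.51 and 10.54 in Abcb11-/- livers and 12.01, 12.12 and 11.97 in WT livers. It was 2.50-fold lower (log2 -1.32 ± 0.32), and its adjusted p of 0.0495 lay at the threshold. The WT livers were close together and the Abcb11-/- livers were spread, with replicate 2 nearest WT. The call was lost without WT replicate 1, 2 or 3 (adjusted p = 0.137, 0.166 and 0.139) and without Abcb11-/- replicate 1 or 3 (0.056 and 0.145). Sult2a2 was at 11.75, 11.94 and 11.88 in Abcb11-/- livers, against 11.44, 10.93 and 11.25 in WT livers, 1.57-fold higher (log2 0.65 ± 0.14, adjusted p = 0.033). Its call was lost without WT replicate 2 or 3 (adjusted p = 0.086 and 0.098) and without Abcb11-/- replicate 2 or 3 (0.068 and 0.101).

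Sult1e1, the estrogen sulfotransferase, was dim throughout, at 4.01, 3.02 and 3.67 in Abcb11-/- livers and 2.43, 2.23 and 2.60 in WT livers. The WT values lay below the array medians, and the fitted log2 change was 1.15 ± 0.24 (adjusted p = 0.030). The call was lost without any 1 of the WT replicates (adjusted p = 0.100, 0.123 and 0.078 for replicates 1, 2 and 3) and without Abcb11-/- replicate 3 (0.097). Sult1c2 was at 6.12, 6.00 and 5.97 in Abcb11-/- livers and at 6.72, 6.70 and 6.30 in WT livers, 1.46-fold lower (log2 -0.54 ± 0.13, adjusted p = 0.049). Its call was lost without WT replicate 1 or 2 and without any 1 Abcb11-/- replicate, with adjusted p of 0.151, 0.174, 0.055, 0.090 and 0.142 in that order. Of the members that did not pass, Sult1a1, the main phenol sulfotransferase, averaged 12.59 ± 0.03 in Abcb11-/- and 12.25 ± 0.08 in WT livers (log2 0.33 ± 0.08, adjusted p = 0.057). Sult1d1, which acts on catecholamines, averaged 10.84 ± 0.12 in Abcb11-/- and 10.71 ± 0.15 in WT livers, and Sult1c1 was dim, at 2.81 ± 0.19 and 3.08 ± 0.16 (SD, n = 3 each).

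Of the UGT genes, 2 of the UGT2B subfamily, which acts on steroids among others, were lower and none was higher. Ugt2b1, the brighter of them, had 10.56, 10.83 and 10.11 in Abcb11-/- livers, against 12.03, 11.99 and 11.99 in WT livers. It was 2.83-fold lower (log2 -1.50 ± 0.17, adjusted p = 0.0034), and the call held without any single array. Ugt2b37 was dimmer, at 4.82, 5.26 and 5.17 in Abcb11-/- livers and 5.90, 6.31 and 6.59 in WT livers, 2.27-fold lower (log2 -1.18 ± 0.19, adjusted p = 0.012). Without WT replicate 2 its adjusted p was 0.061. Both genes lie in a stretch of neighbouring UGT2 and SULT1 genes. Along it RefSeq places the measured members in the order Ugt2b34 (log2 0.02), Ugt2b1 (-1.50), Ugt2b35 (-0.16), Ugt2b5 (-0.22), Ugt2b37 (-1.18), Ugt2a3 (-0.19), Ugt2a1 (-0.19), Sult1b1 (-0.44), Sult1d1 (0.13) and Sult1e1 (1.15). The 3 called members of this stretch, Ugt2b1, Ugt2b37 and Sult1e1, were thus separated by members that were not called. Members of the Ugt2b subfamily are similar in sequence, and a probe set may pick up more than its named gene.

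The other 9 UGT genes did not pass. Ugt1a6a, which conjugates phenols, averaged 12.64 ± 0.08 in Abcb11-/- and 12.76 ± 0.09 in WT livers, and Ugt1a9 12.27 ± 0.08 and 12.40 ± 0.04 (SD, n = 3 each). Mouse UGT1A transcripts share their 3′ exons, so such probe sets may report the UGT1A locus as a whole, the bilirubin enzyme included. The UGT3A genes, whose human counterparts use other UDP-sugars than glucuronic acid, were lower without passing. Ugt3a2 had 10.29, 11.49 and 10.99 in Abcb11-/- livers and 11.79, 11.71 and 11.72 in WT livers (log2 -0.82 ± 0.27, adjusted p = 0.12). Ugt3a1 had 7.82, 9.36 and 8.70 in Abcb11-/- livers and 9.47, 9.45 and 9.33 in WT livers (log2 -0.79 ± 0.34, adjusted p = 0.23). Without Abcb11-/- replicate 2 Ugt3a2 (adjusted p = 0.020) and Ugt3a1 (0.032) passed, along with Gstm2 (0.014) and Gstm7 (0.045), and the counts became 8 higher and 7 lower.

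**Figure D2:**
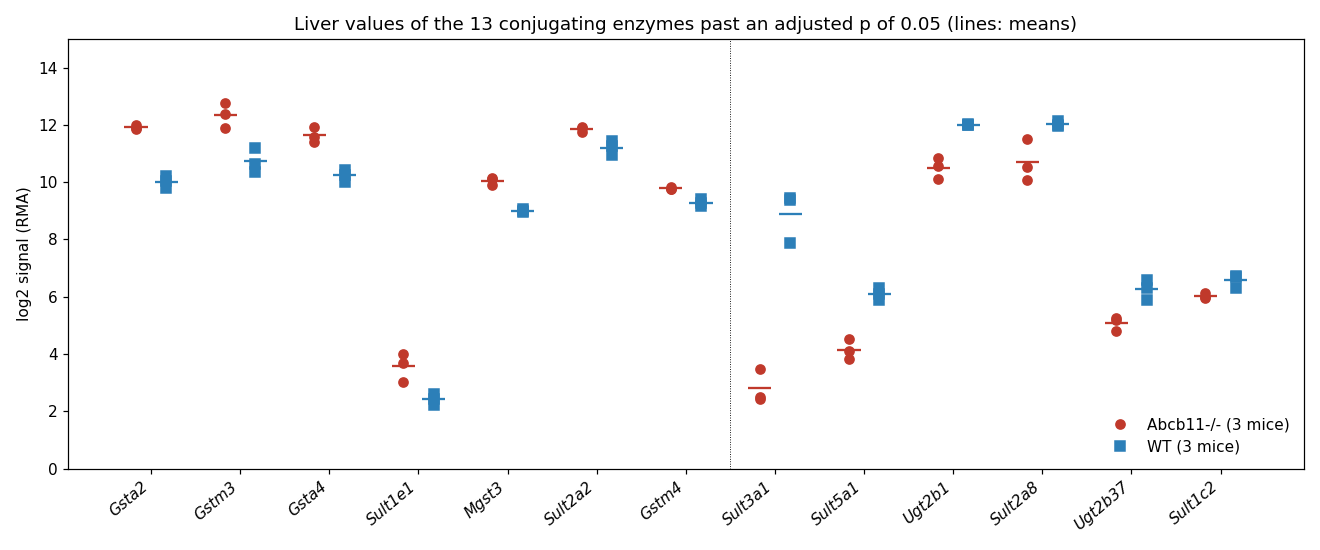
Log2 signal on each liver array for the 13 called members, Abcb11-/- (circles, left) and WT (squares, right), 3 mice each, with lines at the means. The groups overlap for none of the 13, which were picked by the test on these same arrays. Over all genes 26% (4438 of 17097) had groups that did not overlap. Sult1e1 is the only one of the higher members with all values at 4.01 or below.

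The Abcb11-/- livers were not alike in how far they lay from WT. Replicate 2 lay nearest the WT mean for 10 of the 13 called members, replicate 1 for 3 and replicate 3 for none. Over all 43 members the numbers were 21, 11 and 11 in that order, and over all genes 6470, 5237 and 5390. Groups did not overlap for 26 of the 43 members, beside 26% of all genes (4438 of 17097). At an unadjusted p under 0.05, 12 members were higher and 10 lower, beside 2052 and 1643 of all genes.

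Genes that supply and follow these enzymes were described from 6 lists chosen with earlier results of these data known. Of 12 genes of PAPS supply and sulfate handling 2 were higher and none lower, with a median log2 fold change of -0.16. Papss1, a PAPS synthase, had 6.92, 7.10 and 7.21 in Abcb11-/- livers and 5.78, 5.59 and 5.20 in WT livers (log2 1.55 ± 0.16, adjusted p = 0.0022). Papss2, the brighter synthase, averaged 10.79 ± 0.30 in Abcb11-/- and 11.08 ± 0.09 in WT livers and did not pass. Of 11 genes of UDP-glucuronic acid supply 1 was higher and 1 lower (median 0.13). Ugdh, which oxidizes UDP-glucose to UDP-glucuronic acid, was at 11.38, 11.21 and 11.21 in Abcb11-/- livers and 10.19, 10.39 and 10.07 in WT livers (log2 1.05 ± 0.11, adjusted p = 0.0025). Ugp2, which makes UDP-glucose, was lower (log2 -0.60 ± 0.10, adjusted p = 0.013, but 0.053 without WT replicate 1). Of 18 genes of glutathione supply and turnover only Anpep, a peptidase of glutathione breakdown products, passed, and it was lower (log2 -0.62 ± 0.09, adjusted p = 0.008, list median 0.03).

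The list of conjugate export held pumps, the transporter subunits Slc51a and Slc51b, and Rdx, which is not a transporter. Of its 12 genes 3 were higher, 2 were lower and 7 did not pass, with a median of 0.10. Among the uncalled ones, the basolateral conjugate pump Abcc3 averaged 10.74 ± 0.15 in Abcb11-/- and 10.78 ± 0.08 in WT livers (SD, n = 3 each). Slc51b, a subunit of the basolateral organic solute transporter, had 9.42, 8.86 and 9.23 in Abcb11-/- livers and 4.93, 5.19 and 5.32 in WT livers (log2 4.02 ± 0.16, adjusted p = 5.3e-05). Abcb1a, a drug efflux pump, was at 9.83, 8.84 and 9.34 in Abcb11-/- livers and 6.79, 6.57 and 6.59 in WT livers (log2 2.69 ± 0.23, adjusted p = 0.0014), and Abcc4, a basolateral pump for conjugates, was higher by log2 1.44 ± 0.22 (adjusted p = 0.010). The canalicular conjugate pump Abcc2 was lower, at 10.01, 9.32 and 9.73 in Abcb11-/- and 10.43, 10.42 and 10.37 in WT livers (log2 -0.72 ± 0.17, adjusted p = 0.043). Its call was lost without any 1 of the WT replicates (adjusted p = 0.131, 0.143 and 0.121) or without Abcb11-/- replicate 3 (0.108).

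Of 14 regulators 2 were higher and 5 lower, with a median of -0.44. Nr1i2, which encodes PXR, had 8.75, 8.90 and 8.47 in Abcb11-/- livers and 7.51, 7.65 and 7.85 in WT livers (log2 1.04 ± 0.14, adjusted p = 0.0061). Ppara, a fatty acid receptor, was lower (log2 -1.45 ± 0.09, adjusted p = 0.0004), as were Nr1h4, the bile acid receptor FXR (log2 -0.85 ± 0.13, adjusted p = 0.011), and Rxra, their shared partner (log2 -0.65 ± 0.14, adjusted p = 0.031). The call of Nr1h4 was lost without WT replicate 2 (adjusted p = 0.055), and that of Rxra without any 1 of the WT replicates (0.096, 0.079 and 0.080) or without Abcb11-/- replicate 1 or 3 (0.055 and 0.096). The other called regulators were Mafg, which was higher (log2 0.62 ± 0.08, adjusted p = 0.0061), and Bach1 and Ahr, which were lower. Bach1 differed by log2 -0.64 ± 0.11 (adjusted p = 0.016) and Ahr by -0.56 ± 0.10 (adjusted p = 0.020). Of 11 target genes of the same regulators, 3 were higher and 2 lower (median 0.12). Cyp2c55, a target of PXR and CAR, was at 11.69, 10.58 and 10.90 in Abcb11-/- livers and 8.97, 8.31 and 8.04 in WT livers (log2 2.62 ± 0.32, adjusted p = 0.0045). Among the uncalled targets were Cyp3a11 (log2 0.22 ± 0.10, adjusted p = 0.26) and Cyp3a13 (log2 0.12 ± 0.09, adjusted p = 0.50). Nqo1, a target of NRF2 and AHR, was higher (log2 0.82 ± 0.10, adjusted p = 0.005). Cyp1a2, an AHR target, was lower (log2 -1.65 ± 0.20, adjusted p = 0.0044), as was Cyp2b10, a CAR target (log2 -1.35 ± 0.22, adjusted p = 0.013, but 0.058 and 0.053 without WT replicate 1 or 3).

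**Figure D3:**
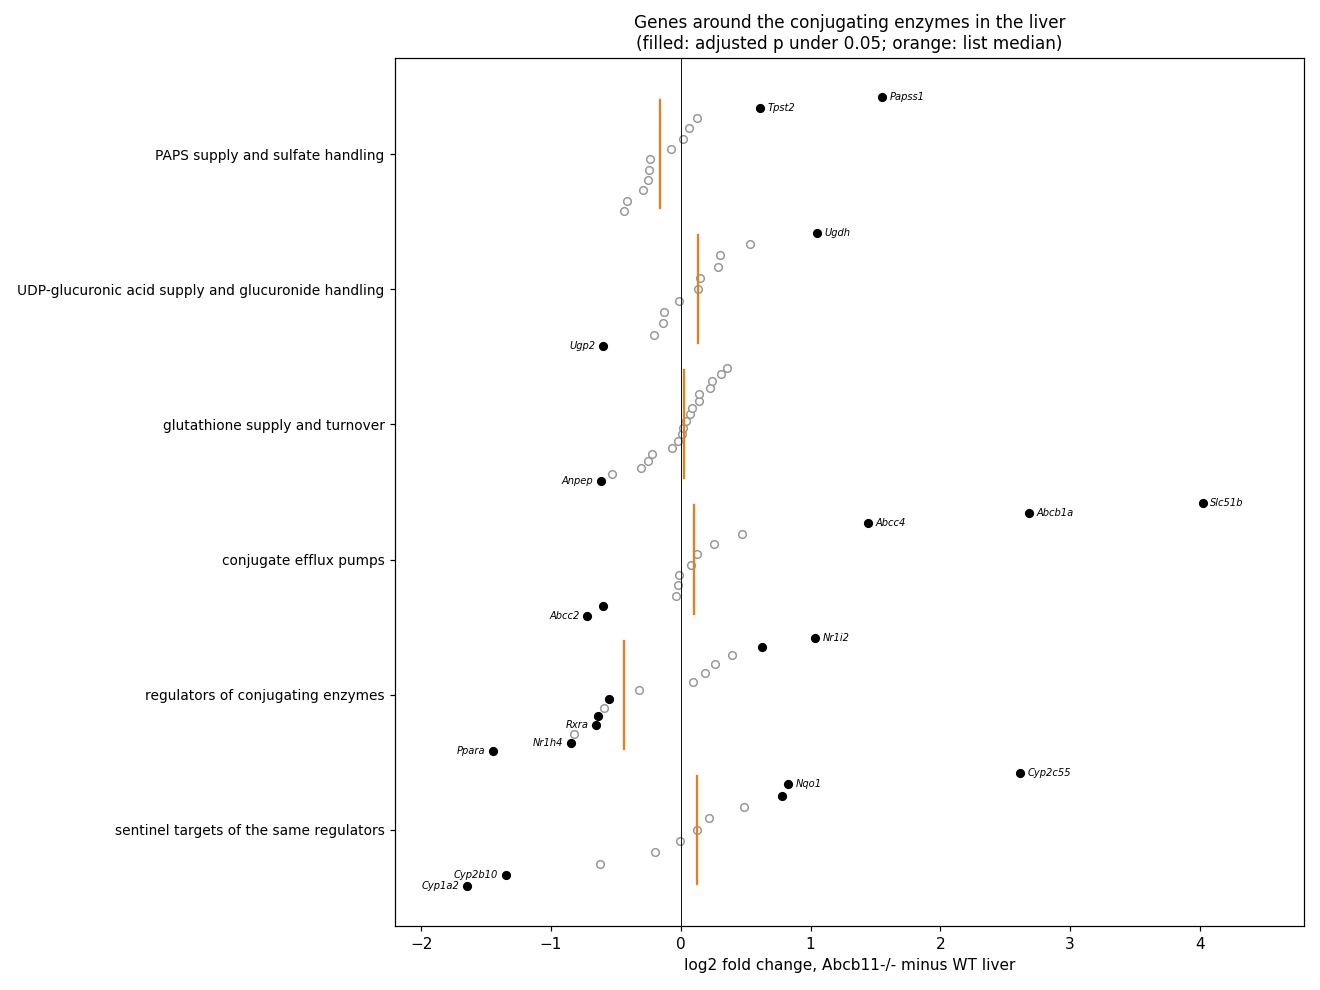
Log2 fold change in liver, Abcb11-/- minus WT (3 mice each), for each measured gene of 6 lists, with filled points for adjusted p under 0.05, an orange line at each list median, and names on up to 4 called genes a list. Slc51b at 4.02 stands furthest to the right, and the list of regulators has the lowest median, -0.44.

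In the lung most members were dim. Only 13 of the 43 reached a log2 value of 7 on any array, 10 GST, 1 SULT and 2 UGT genes, and 26 stayed below 5 on all 6 arrays. The 6 members with the highest means in the lung were Mgst1 at 11.20 to 11.57, Gstp1 at 9.31 to 10.05, Gsto1 at 8.82 to 9.78, Sult1a1 at 8.40 to 9.72, Ugt1a6a at 7.66 to 9.75 and Gsta4 at 8.73 to 9.32 over the 6 arrays. Sult1d1 lay at 2.85 to 3.35 and Sult1c1 at 2.62 to 3.21, near the array medians of 3.63 to 3.68. The 2 tissues were normalized apart, so these levels were not set against those of the liver by size.

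At E17.5, 2 members were higher by 1.5-fold or more in the lung of Abcb11-/- mothers, against 0 lower by as much, of the 13 whose brighter array reached 7. Over all 5590 such genes the shares were 3.02% higher and 2.45% lower. Both were UGT1A genes. Ugt1a6a was at 8.81 with an Abcb11-/- mother and at 7.66 with a WT mother, 2.22-fold apart, and Ugt1a9 at 7.13 and 6.17, 1.94-fold apart. At E18.5 Ugt1a6a lay at 9.75 with an Abcb11-/- mother and 9.20 with a WT mother (1.47-fold), and Ugt1a9 at 8.34 and 7.77 (1.49-fold). At N0 the values were 9.62 and 9.32 for Ugt1a6a and 8.25 and 7.83 for Ugt1a9. The array of the Abcb11-/- mother was thus the higher of the pair at all 3 stages for both genes, with a gap that was widest at E17.5. A second probe set of Ugt1a6a had 6.61, 7.70 and 7.64 at E17.5, E18.5 and N0 with an Abcb11-/- mother, against 5.61, 7.04 and 7.06 with a WT mother. Because UGT1A transcripts share their 3′ end, these probe sets are not independent readings of separate genes.

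Transcripts of other tissues were present on the Abcb11-/- mother's array at E17.5. There 14 of 15 hepatocyte genes were at least 1.5-fold above the WT-mother array (median log2 difference 4.30, summed signal 26438 against 2827), and 9 of 10 skeletal muscle genes were as well (median 4.14, 3660 against 170). At E18.5 and N0 the hepatocyte medians were 0.03 and 0.06, with 1 and 3 of the 15 genes at least 1.5-fold higher and 0 as far lower. At N0 these were Alb (log2 1.28), Ttr (1.01) and Afp (0.80). Other marker lists moved on the same E17.5 pair, with 6 of 8 neutrophil genes at least 1.5-fold higher (median 1.10) and 6 of 8 heart muscle genes as far lower (median -0.83) with an Abcb11-/- mother. Of 6 type II cell genes 3 were higher by as much (median 0.54), as were 2 of 6 club cell genes (median 0.31) and 1 of 7 type I cell genes (median 0.04). The club cell gene Scgb1a1 differed by log2 1.95 there. Scgb3a1 was the 1 club cell gene at least 1.5-fold lower (log2 -1.21), and Aldh1a7 differed by -0.02. Aqp5, a water channel of type I cells, was at 8.49, 9.51 and 10.09 at E17.5, E18.5 and N0 with an Abcb11-/- mother, against 7.35, 9.50 and 10.43 with a WT mother. Sftpd, a surfactant gene of type II cells, was at 10.43, 11.73 and 11.64 with an Abcb11-/- mother, against 9.02, 11.45 and 12.09 with a WT mother. At E17.5 both thus lay above the WT-mother array, and both were higher at E18.5 than at E17.5 with either mother. Aqp5 was the only 1 of the 7 type I genes at least 1.5-fold higher at E17.5. Among the others Hopx differed by -0.02, Pdpn by -0.05 and Cav1 by -0.01. Sftpd had the widest difference of the 6 type II genes, and Abca3 differed by 0.28. The type II gene Sftpc was at 13.25 with an Abcb11-/- mother and 13.23 with a WT mother at E17.5. Ugt1a6a and Ugt1a9 were themselves bright in adult liver, at 12.76 and 12.40 in WT mice. A set of 11 other members averaged 10 or more in liver and lay below 5 on every lung array, among them Gsta2, Sult2a2 and Ugt2b1. Their E17.5 differences by mother spanned -0.18 to 1.21 with a median of 0.21, and 1 of them, Ugt2b34, stood 2.31-fold apart (4.24 with an Abcb11-/- mother and 3.03 with a WT mother). At E18.5 and N0 their medians were -0.06 and -0.11. The liver levels of these members and of the UGT1A genes are those of adult mice, and no fetal liver was measured. Their differences therefore cannot gauge how much liver transcripts added to the E17.5 array. The part of the other tissues and of the lung cell types in the E17.5 values was not tested.

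**Figure D4:**
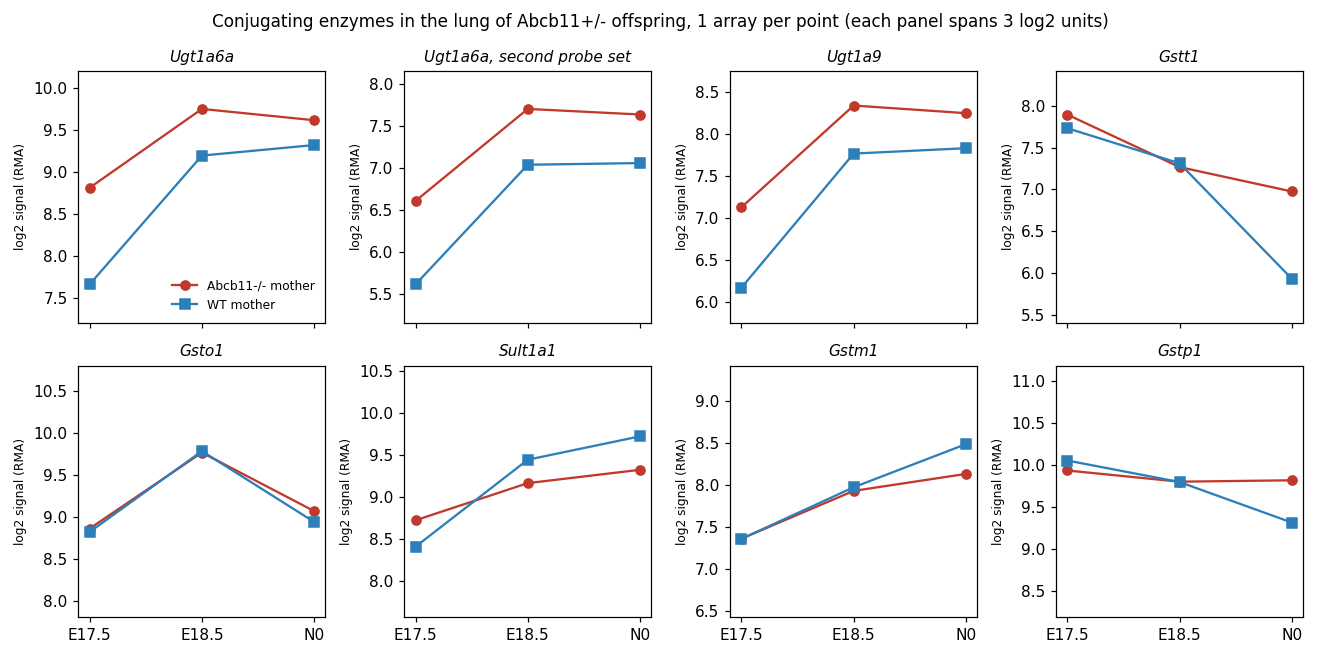
Log2 signal of 7 members (and a second probe set of Ugt1a6a) in lung of Abcb11+/- offspring at E17.5, E18.5 and N0, with an Abcb11-/- mother (circles) or a WT mother (squares), 1 array per point. Both Ugt1a6a probe sets and Ugt1a9 lie higher with an Abcb11-/- mother at each stage and climb between E17.5 and E18.5, Gsto1 peaks at E18.5 with both mothers, and Gstt1 separates by mother at N0 only.

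At E18.5 none of 13 bright members was 1.5-fold apart in either direction, beside 0.677% of genes higher and 0.403% lower, and at N0 none of 12 was, beside 3.36% higher and 2.88% lower. The widest gaps among bright members at N0 were those of Gstp1, at 9.82 with an Abcb11-/- mother and 9.31 with a WT mother, and Gstm2, at 8.58 and 8.08. Gstt1, a theta-class enzyme that acts on small halogenated molecules, was chosen after its values were seen, because its gap at N0 was wider but its brighter array fell just short of the minimum of 7. It was at 7.89, 7.27 and 6.98 at E17.5, E18.5 and N0 with an Abcb11-/- mother, and at 7.73, 7.31 and 5.94 with a WT mother, so that the arrays parted at N0 only (log2 difference 1.04). On these N0 arrays heart muscle genes had a median difference of 0.86 and neutrophil genes of -0.58, and their part in it was not tested.

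Over the 3 stages together no gene passed for the mother (limma, additive model of stage and mother with 2 residual degrees of freedom), 0% of 17097 genes and none of the 43 members. At an unadjusted p under 0.05 there were 4 members (Gstp3, Gstt2, Ugt1a6a and Ugt1a9) and 867 genes in all, and with a trended and robust prior 0 members and 1 gene passed. The difference for Ugt1a6a was 0.67 ± 0.18 on the log2 scale (SE, adjusted p = 0.93) and for Ugt1a9 0.65 ± 0.14 (adjusted p = 0.93), higher with an Abcb11-/- mother at 3 of 3 stages. Gstp3, which lay at 3.18 to 3.80 near the array medians, differed by 0.43 ± 0.11 and Gstt2, at 5.45 to 6.25, by 0.36 ± 0.12 (adjusted p = 0.93 for both), each also higher at 3 of 3 stages. The fit that picked these 4 members used the same 3 stages, so a direction shared by all 3 adds no support. Without the Abcb11-/- mother's array at E17.5 the differences of Ugt1a6a and Ugt1a9 were 0.43 and 0.50 (adjusted p = 0.76 and 0.74). Family medians by mother stayed close to 0 at each stage, at 0.03, 0.00 and 0.17 for GST, 0.06, -0.03 and -0.11 for SULT, and 0.17, 0.02 and -0.02 for UGT at E17.5, E18.5 and N0.

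For E18.5 over E17.5 the UGT1A genes and Gsto1 had the largest differences among the members, and for N0 over E18.5 Gstt1 (log2 -0.83, adjusted p = 0.33) and Gsto1 had. Of all genes 0.0585% passed for E18.5 over E17.5 and 0% for N0 over E18.5, and no member was among them, with 6 and 3 members at an unadjusted p under 0.05 beside 2191 and 2098 of all genes. Ugt1a9 differed by 1.41 ± 0.17 on the log2 scale between E18.5 and E17.5 (adjusted p = 0.088) and Ugt1a6a by 1.24 ± 0.22 (adjusted p = 0.13), followed by differences of -0.01 and 0.00 between N0 and E18.5. Without the Abcb11-/- mother's array at E17.5 the differences of Ugt1a9 and Ugt1a6a were 1.64 and 1.60. That fit had only 1 array at E17.5, so this stage had no replicate in it. Gsto1, which also reduces dehydroascorbate, was at 8.86, 9.76 and 9.07 with an Abcb11-/- mother, and at 8.82, 9.78 and 8.94 with a WT mother at E17.5, E18.5 and N0. Its level at E18.5 was the highest of the 3 stages with either mother, by 0.93 ± 0.13 over E17.5 (adjusted p = 0.097), and N0 lay -0.77 ± 0.13 from E18.5 (adjusted p = 0.18). With a trended and robust prior Ugt1a6a, Ugt1a9 and Gsto1 passed for E18.5 over E17.5 (adjusted p = 0.031, 0.012 and 0.012), as did Gsto1 for N0 over E18.5 (0.029), beside 197 and 87 of all genes. Sult1a1, the 1 bright sulfotransferase, was at 8.72, 9.16 and 9.32 with an Abcb11-/- mother and at 8.40, 9.44 and 9.72 with a WT mother in the same stage order. It was lowest at E17.5 with both mothers, by 0.74 ± 0.20 below E18.5 (adjusted p = 0.24). The 2 stage comparisons share the E18.5 arrays.

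The members called in the liver were mostly dim in the lung. Of the 13, Gsta4 and Mgst3 reached 7 there, Mgst3 at 7.90 to 8.37 over the 6 arrays, and Sult5a1 lay at 6.40 to 6.60. The other 10 stayed below 5. By mother, Gsta4 differed by -0.16, -0.08 and -0.14 at E17.5, E18.5 and N0, and Mgst3 by 0.03, -0.18 and 0.22, none near 1.5-fold. Sult5a1 differed by 0.03, -0.07 and -0.07. Of the list genes described in the liver, Papss1 was bright in the lung at 9.23 to 9.77 and Ugdh at 8.75 to 9.11. Neither differed by mother beyond 0.38 at any stage.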

How the data were processed

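RNA of 12 mouse samples was measured on Affymetrix HT MG430 PM plate arrays. The authors deposited log2 values made with RMA (robust multiarray averaging), and Partek 6.5 is named in the submitters' processing notes. Array medians were 3.15 to 3.18 in liver and 3.63 to 3.68 in lung. There is no detection p, and the number of arrays limits precision. Of 45037 probe sets, 28898 had 1 gene name, 551 several and 15588 none, and no member came from a probe set with several names. The build of the files was not given in the sources used here. Promoter sequences are RefSeq's (GRCm38.p6).

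Liver values were tested by genotype and lung values by stage and mother with limma 3.58.1 in R 4.3.3 (lmFit, eBayes, Benjamini-Hochberg adjusted p under 0.05 over 17097 genes), and the scripts were tested on simulated data. Lung differences at 1 stage were counted from 1.5-fold, with the brighter array at 7 or more. The members and lists were chosen with earlier results of these data known. Named members were those past these limits, members with a role in bile acid, bilirubin or lung conjugation, and up to 4 called genes a list. Gstt1, Gstt2, Gstp3, Abcc3, lung marker genes, Gstm1, Gstm2, Ugt2b34, the UGT3A genes, Papss2, genes of the liver results described in lung, and genomic neighbours were named after their values were seen. So were hepatocyte and bile duct marker genes, Cyp3a11, Cyp3a13, Mafg, Bach1 and Ahr. Alternatives were other probe set rules, a minimum mean of 6, quantile normalization, median centring, a trended prior, a replicate block, left-out arrays or stages, the methods' test and other lung limits. The labels give replicate numbers without saying that they pair the samples, so the main fit left them out.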

Additional observations from a re-analysis of the deposited data

Results flagged for a closer look

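Probe sets of the members that the comparisons did not use carried a signal of their own in the liver for 2 genes. A second probe set of Gsta2 averaged 12.18 in Abcb11-/- and 9.50 in WT livers (log2 fold change 2.68, limma adjusted p over all probe sets 0.00045). A second probe set of Gstm3 averaged 10.02 in Abcb11-/- and 7.68 in WT livers (log2 fold change 2.34, adjusted p 0.015). Both differences ran the same way as those of the probe sets used, 1.89 for Gsta2 and 1.61 for Gstm3, and were wider. The Gsta2 probe set is marked by the manufacturer as matching several transcripts. Groups of 3 arrays or fewer were not tested for an outlying sample.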

How the results depend on the processing

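No called result changed direction under the alternatives that were run. In the liver, 7 members were higher and 6 lower. Over the fits that left out 1 array each, the count of higher members was 3 to 8 and that of lower members 3 to 7. Among genes averaging 6 or more on the log2 scale, 3 members were lower, because Sult3a1, Sult5a1 and Ugt2b37 were not tested. The methods' t-test gave 12 higher and 9 lower members unadjusted, beside 1685 and 1444 of all genes, and after adjustment 1 higher (Gsta2) and 0 lower, beside 26 and 23 of all genes. With the replicate number as a block, 9 of the 13 calls were kept, and Gstm4, Sult1c2, Sult2a2 and Sult2a8 were not (adjusted p = 0.076, 0.073, 0.095 and 0.060), nor were those of Abcc2, Nr1h4 and Rxra (0.075, 0.050 and 0.077), while 429 genes were higher and 242 lower among all genes, against 740 and 498. Same-numbered livers deviated with correlations of -0.17, -0.15 and -0.24, and livers of different number with correlations of 0.01 to 0.19. Whether the numbers mark samples handled together was not tested. Sult2a8 also lost its call with the mean of all probe sets (adjusted p = 0.054) and with a trended and robust prior (0.13), and Sult1c2 with median centring (0.055). Sult1a1 passed with the mean of all probe sets (0.040), with genes averaging 6 or more (0.029) and with a trended and robust prior (0.012). Gstm7 passed with genes averaging 6 or more (0.049). All 13 calls were kept under quantile normalization and without probe sets marked as shared. In the lung, members called for E18.5 over E17.5 numbered 0, but 2 with a mean of at least 6 (Gsto1 and Ugt1a9, beside 45 of 7222 genes) and 3 with a trended and robust prior (beside 197 of 17097). The fit without the Abcb11-/- mother's array at E17.5 had only 1 array at that stage, so its calls are not counted here. For N0 over E18.5 there was 1 with a trended and robust prior (beside 87). With a brightness minimum of 6, 1 member (Gstt1) was 1.5-fold apart by mother at N0. The cause of these changes was not tested. Low signal limits what can be said of the 10 members that averaged below 6 in the liver and the 30 that did not reach 7 in the lung.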
